A study of Mus musculus with 11 samples.

Results

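The 10 genes of the calcium cycle listed below were followed in the hearts of Pde2A knockout and wild-type embryos at E14.5. They were taken by name, without regard to their values. The 5 genes of the release unit and the luminal store were Ryr2, Casq1, Casq2, Trdn and Jph2, the 3 genes of reuptake were Atp2a2, Pln and Sln, and the 2 genes of the plasma membrane were Cacna1c and Slc8a1. All 10 were among the 24177 genes tested, of 55487 gene identifiers in the counts. By edgeR 0 of the 10 were called different between the genotypes, beside 14.6% of all genes tested. An unadjusted p under 0.05 was found for 2 of the 10 and for 30.5% of all genes. DESeq2 called 1 of the 10, Casq1, and 30.2% of its genes. The values of the genotypes overlapped for each of the 10, while 8.49% of all genes had no overlap.

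In each beat, calcium enters the cardiomyocyte through the L-type channel and opens the ryanodine receptor, which releases the store of the sarcoplasmic reticulum and starts contraction. The SERCA pump returns the calcium to the store under the restraint of phospholamban and sarcolipin, and the sodium-calcium exchanger removes what has entered. Protein kinase A, the main target of cAMP, phosphorylates the L-type channel complex, the ryanodine receptor and phospholamban. Pde2A breaks down cAMP and cGMP. The comparison asked whether transcripts of the cycle differed in hearts without Pde2A.

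The 5 knockout hearts were Pde2A-/- (replicates A, B, 14, D and 15) and the 6 wild-type hearts were Pde2A+/+ (replicates 7, 11, 6, 8, H and E). Embryos of the line B6;129P2-Pde2A<tm1Dgen> came from crosses of Pde2A+/- parents, were of both sexes and had no drug treatment. The deletion was not limited to the heart. Each library was made from 1 heart, and no litter, sex or batch was given for single hearts. A heart library holds all the cells of the organ. Fewer cells of a type and less RNA per cell cannot be told apart in it.

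The sense counts on genes summed to between 35865537 and 42835382 in a heart. Pde2a (ENSMUSG00000110195) had between 0 and 2 counts in every heart of either genotype, so the counts of the targeted gene could not check the genotype labels. Of its exon bases 64.3% also lie in exons of Gm45837 on the same strand, reads on several genes are counted on none, and Gm45837 likewise had 0 to 2 counts, so these values do not show whether Pde2a was expressed. Values below are CPM, counts scaled to a common library total after TMM normalization, which assumes that most genes do not differ. The genotypes were compared by the quasi-likelihood test of edgeR, and genes with a p under 0.05 after Benjamini-Hochberg adjustment over all 24177 genes were called. By this rule 14.6% of all genes tested were called, 8.93% as higher and 5.67% as lower in Pde2A-/- hearts. Each of the 10 calcium genes had a mean above 10 CPM, and among genes at that level 25.1% were called. The p-values measure the spread between these hearts.

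Some heart muscle genes other than those of the calcium cycle were lower in Pde2A-/- hearts. Of 18 cardiomyocyte markers 7 were called lower and 0 higher, beside 5.67% of all genes called lower, and 11 were not called. The median log2 fold change of the 18 was -0.18, and their mean log2 CPM was 10.17 to 10.33 in Pde2A-/- and 10.30 to 10.67 in Pde2A+/+ hearts. The 2 most abundant of them, Myh7 and Actc1, had adjusted p of 0.739 and 0.843 (edgeR). Macrophage markers were called higher for 7 of 8 genes, with a summed level of 204 to 257 CPM against 102 to 160 CPM, and erythroid markers for 4 of the 7 tested. The other 3 erythroid markers, Alas2, Hbb-bs and Hba-a1, were not called, at log2 fold changes of -0.60, -0.51 and -0.51, and the summed erythroid level of 2520 to 4367 CPM in Pde2A-/- lay within the 2081 to 8640 CPM of wild-type hearts. Endothelial and fibroblast markers were called higher for 3 of 8 genes each, and smooth muscle markers lower for 2 of 6. Of all genes tested 8.93% were called higher and 5.67% lower. Some transcripts of skeletal muscle stood apart in 2 libraries, Pde2A-/- replicates B and D. There Myh3, the embryonic myosin heavy chain, had 71.0 and 86.7 CPM against 0.39 to 16.7 CPM in the other hearts. Others of the list did not stand apart. Acta1 had 112.3 and 129.6 CPM in B and D and 91.9 to 178.7 CPM elsewhere. Tnni2 had 14.8 and 11.4 against 6.67 to 18.2 CPM, and Actn3 4.15 and 8.10 against 2.19 to 8.16 CPM. The mean log2 CPM of 16 skeletal muscle genes was 2.26 and 2.05 in B and D and -0.36 to 1.04 elsewhere. Of the 16, 1 was called higher, Tnnt3 (log2 fold change 1.36, edgeR adjusted p = 0.0435), a call lost without B and D (0.68, edgeR adjusted p = 0.314). The part of these cell populations in the values below was not tested.

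Levels between the 10 genes were compared as CPM per kb of exon. In wild-type hearts the SERCA pump gene Atp2a2 stood first with 536 ± 38.7 CPM per kb (SD, n = 6), followed by Pln with 439 ± 88.9, whose range overlapped that of Atp2a2. Casq2 followed with 241 ± 32.9 CPM per kb, and its values lay between 189 and 276, below every value of Pln. Jph2 had 119 ± 14.5, Slc8a1 88.6 ± 9.34 and Casq1 75.4 ± 13.4 CPM per kb, and of these 3 the last 2 overlapped. Trdn followed with 23.5 ± 2.78, Sln with 19.1 ± 8.59, Ryr2 with 16.6 ± 2.90 and Cacna1c with 9.64 ± 1.55 CPM per kb. Trdn, Sln and Ryr2 could not be ordered by their ranges, and Cacna1c, at 7.56 to 12.0, lay below all values of Ryr2 but not of Sln. The length was that of all annotated exons joined, so the level of a gene with many alternative exons is understated.

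**Figure D1:**
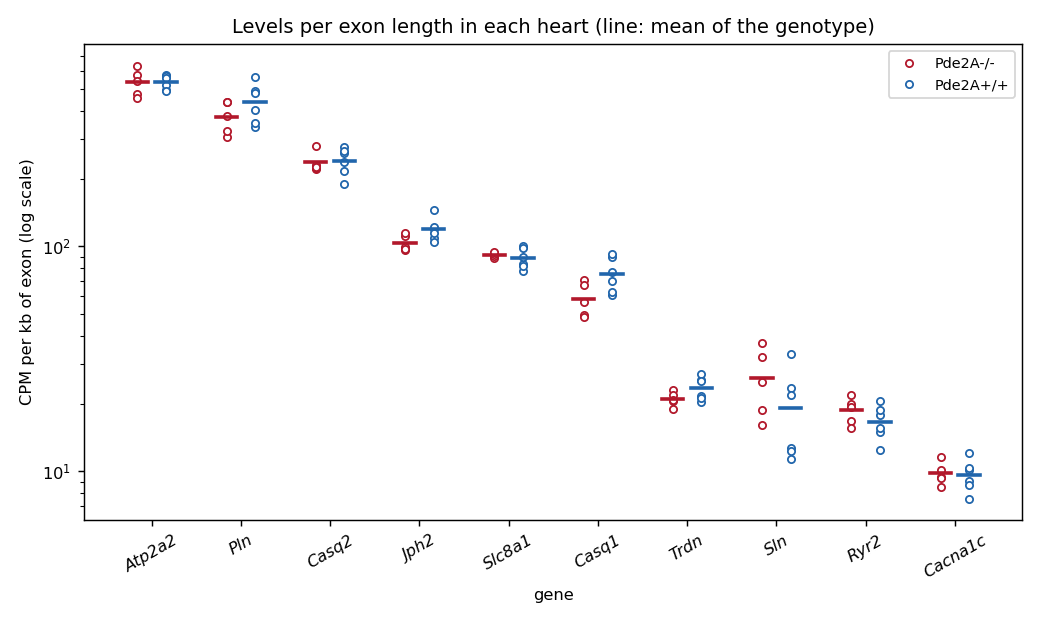
Levels of the 10 genes in CPM per kb of joined exons on a log scale, with 1 point per heart and a line at the mean of the 5 Pde2A-/- (red) and 6 Pde2A+/+ (blue) hearts. Genes are in the order of their wild-type means, from 536 for Atp2a2 to 9.64 for Cacna1c, and each gene's genotypes overlap.

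The order was nearly kept in Pde2A-/- hearts. Atp2a2 had 539 ± 72.9 (SD, n = 5), Pln 377 ± 61.4 and Casq2 236 ± 25.0 CPM per kb. At the lower end Sln, with 25.9 ± 8.95 CPM per kb, had a higher mean than Trdn, with 20.98 ± 1.52, the reverse of wild-type hearts, and in both genotypes these 2 genes overlapped.

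Transcripts of the release channel and the luminal store were measured first. Ryr2 (ENSMUSG00000021313), on chromosome 13 from 11553102 to 12106945 in GRCm38, encodes the ryanodine receptor of heart muscle, the channel through which the store empties. It had 480.3, 449.6, 574.6, 555.0 and 630.0 CPM in Pde2A-/- replicates A, B, 14, D and 15. The wild-type hearts ranged from 357.0 to 588.7 CPM with a median of 478.9. Only replicate 15 lay above all wild-type hearts, and the log2 fold change was 0.17 ± 0.12 (SE, edgeR adjusted p = 0.380).

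Casq1 (ENSMUSG00000007122), on chromosome 1 from 172209894 to 172219868, encodes the calsequestrin known from skeletal muscle, which binds calcium inside the store. Its values were 96.6, 110.2, 137.6, 94.8 and 131.0 CPM in Pde2A-/- replicates A, B, 14, D and 15. In wild-type hearts it lay between 118.5 and 179.6 CPM with a median of 144.0. The 3 Pde2A-/- replicates named by a letter were below all 6 wild-type hearts and the other 2 within their range. With a log2 fold change of -0.37 ± 0.13 (SE) and an adjusted p of 0.0749 by edgeR, Casq1 had the smallest p of the 10 genes but was not called. DESeq2 gave the same size of difference and called it, at an adjusted p of 0.0291, with 30.2% of its genes called and 13.8% called lower. Without replicates B and D the log2 fold change was -0.27 (edgeR adjusted p = 0.289).

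Replicates B and D, with the highest mean of the 16 skeletal muscle genes, had 110.2 and 94.8 CPM of Casq1. Ryr1, the skeletal muscle ryanodine receptor, had 6.00 and 4.91 CPM there and 0.32 to 2.01 CPM in the other 9 hearts. Atp2a1, the pump of fast skeletal muscle, had 7.48 and 6.69 CPM there and 0.41 to 1.85 CPM elsewhere. The myogenic factor Myod1 was at most 1.27 CPM in any heart. Which cells gave the Casq1 RNA was not tested.

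Casq2 (ENSMUSG00000027861), on chromosome 3 from 102086415 to 102146514, encodes the calsequestrin of heart muscle. The level was nearly even in 4 Pde2A-/- hearts, with 605.9, 609.2, 631.5 and 617.2 CPM in replicates A, 14, D and 15, and replicate B had 767.5. The wild-type hearts spread from 517.7 to 754.5 CPM around a median of 680.3. The log2 fold change was -0.03 ± 0.10 (SE, edgeR adjusted p = 0.888), and its 95% interval allows a fold change between 0.850 and 1.13.

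Trdn (ENSMUSG00000019787), on chromosome 10 from 33080554 to 33476709, encodes triadin, which anchors calsequestrin to the ryanodine receptor. It had 213.9, 204.9, 176.2, 192.4 and 193.5 CPM in Pde2A-/- replicates A, B, 14, D and 15, and 190.7 to 252.2 CPM in wild-type hearts, with a median of 219.0. Replicate 14 was the 1 value outside the wild-type range, below it. The log2 fold change was -0.16 ± 0.08 (SE, edgeR adjusted p = 0.189).

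Jph2 (ENSMUSG00000017817), on chromosome 2 from 163336242 to 163397993, encodes junctophilin-2, which holds the plasma membrane and the store together at the site of release. Pde2A-/- replicates A, B and D, with 410.9, 421.2 and 416.3 CPM, lay below all wild-type hearts, and replicates 14 and 15, with 474.9 and 487.0 CPM, within them. The lowest wild-type heart had 444.5, the median 497.0 and the highest 620.4 CPM. Jph2 and Casq1 were the 2 of the 10 genes with an unadjusted p under 0.05, against 30.5% of all genes tested. Its log2 fold change was -0.20 ± 0.08 (SE, edgeR adjusted p = 0.119), and -0.15 without replicates B and D (edgeR adjusted p = 0.386).

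**Figure D2:**
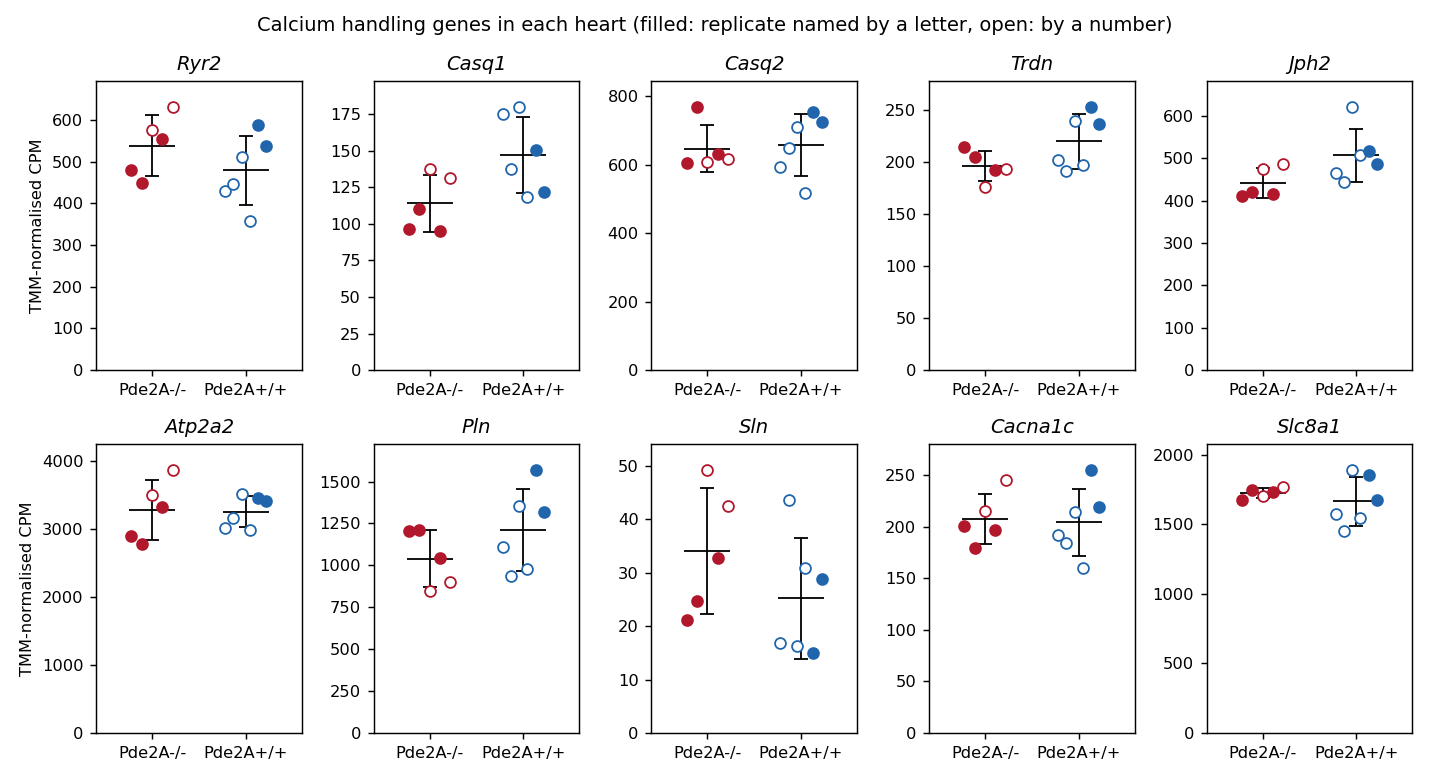
CPM of each gene in the 5 Pde2A-/- (red) and 6 Pde2A+/+ (blue) hearts on axes that start at 0, with the mean and SD as black bars and filled points for replicates named by a letter. The genotypes overlap in all 10 panels, and for Casq1 and Jph2 the 3 filled red points lie below every blue point.

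Reuptake genes showed no difference past the threshold either. Atp2a2 (ENSMUSG00000029467), on chromosome 5 from 122453513 to 122502225, encodes SERCA2, the pump that refills the store. It had 2903, 2785, 3507, 3318 and 3869 CPM in Pde2A-/- replicates A, B, 14, D and 15. The wild-type values went from 2989 to 3519 CPM with a median of 3285. Replicates A and B were below all wild-type hearts and replicate 15 above them, so the Pde2A-/- hearts lay on both sides of the wild-type range, with a CV of 13.5% against 7.22%. The log2 fold change was 0.01 ± 0.08 (SE, edgeR adjusted p = 0.964), with a 95% interval of the fold change from 0.888 to 1.14.

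Pln (ENSMUSG00000038583), on chromosome 10 from 53337667 to 53345987, encodes phospholamban, which slows the pump until protein kinase A phosphorylates it. Pde2A-/- replicates A, B and D had 1205, 1212 and 1043 CPM, and replicates 14 and 15 had 844.7 and 898.8. The wild-type hearts ranged from 939.4 to 1569 CPM with a median of 1215. Only replicates 14 and 15 lay below all wild-type hearts, and no Pde2A-/- heart reached the wild-type median. The log2 fold change was -0.22 ± 0.14 (SE, edgeR adjusted p = 0.315).

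The counting strand mattered for Pln. Exons of Cep85l and Gm47644 on the opposite strand cover 64.7% of its exon bases, and the column without regard to strand held 25.8% of the reads that the sense column gave to it. Of the reads assigned to Pln by strand, 1.01% were on the opposite strand. In the column without strand the log2 fold change was -0.26 (edgeR adjusted p = 0.235).

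Sln (ENSMUSG00000042045), on chromosome 9 from 53850164 to 53854560, encodes sarcolipin, a small inhibitor of the pump that in the mouse heart is a gene of the atria. It was the most variable of the 10 genes, with 21.2, 24.6, 49.2, 32.8 and 42.5 CPM in Pde2A-/- replicates A, B, 14, D and 15. The wild-type hearts ranged from 15.01 to 43.7 CPM with a median of 22.8. Replicate 14 was the 1 heart above all wild-type hearts. The log2 fold change was 0.43 ± 0.29 (SE, edgeR adjusted p = 0.345), and the 95% interval of the fold change, from 0.874 to 2.09, includes a fold of 2.

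Atrial and ventricular markers were read beside Sln and Pln. Myl7, the atrial myosin light chain, had 629 to 1152 CPM in Pde2A-/- and 534 to 1262 CPM in wild-type hearts. In the atrial list Nppa was called higher and Myl4 and Nr2f1 lower, 3 of 7 genes, and the mean log2 CPM of the list overlapped, at 7.10 to 7.50 and 6.80 to 7.78. Of the 5 ventricular genes edgeR called 0, with 4 at an unadjusted p under 0.05, and DESeq2 called 2. Of all genes tested edgeR called 14.6%, 30.5% had an unadjusted p under 0.05, and DESeq2 called 30.2% of its genes. Myl2 and Myl3 had log2 fold changes of -0.42 and -0.28 (edgeR adjusted p = 0.0712 and 0.0902). How much atrial tissue each library held was not tested.

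At the plasma membrane the means of the genotypes were close. Cacna1c (ENSMUSG00000051331), on chromosome 6 from 118587240 to 119196418, encodes the pore of the L-type channel. It had 200.7, 179.7, 215.6, 197.2 and 245.1 CPM in Pde2A-/- replicates A, B, 14, D and 15. All of these lay within the wild-type range of 160.2 to 255.2 CPM, whose median was 203.4, and the log2 fold change was 0.02 ± 0.11 (SE, edgeR adjusted p = 0.910).

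Slc8a1 (ENSMUSG00000054640), on chromosome 17 from 81373105 to 81738377, encodes NCX1, the sodium-calcium exchanger. It was the most even of the 10 genes in Pde2A-/- hearts, with 1675, 1750.4, 1703, 1735 and 1770.2 CPM in replicates A, B, 14, D and 15 and a CV of 2.21%. The wild-type hearts spread from 1456 to 1891 CPM, with a median of 1625 and a CV of 10.5%. The log2 fold change was 0.05 ± 0.07 (SE, edgeR adjusted p = 0.658), with a 95% interval of the fold change from 0.938 to 1.14. Whether the spread differed between the genotypes was not tested.

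Across the list, 5 of the 10 genes had a log2 fold change above 0 and 5 below 0, with a median of -0.01 against -0.02 over all genes tested. None reached a fold change of 2 at an adjusted p under 0.05, against 2.59% of all genes. Non-overlapping genotypes were found for 0 of the 10 and for 8.49% of all genes.

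The balance between partners was compared within each library, where the scaling of libraries has no effect. Pln counts were 41.5, 43.5, 24.1, 31.4 and 23.2% of Atp2a2 counts in Pde2A-/- replicates A, B, 14, D and 15, and 29.7 to 45.3% in wild-type hearts with a median of 37.7%. The difference of -0.21 on the log2 scale had p = 0.303 (exact permutation test over 462 splits of the hearts, two-sided). Casq1 was 15.9, 14.4, 22.6, 15.02 and 21.2% of Casq2 in the same order of replicates. In wild-type hearts this share was 16.8 to 29.5% with a median of 22.0%, a difference of -0.34 (exact permutation p = 0.0758).

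Sln was set against Atp2a2 and against Myl7. It was 0.732 to 1.40% of Atp2a2 in Pde2A-/- and 0.434 to 1.38% in wild-type hearts, a log2 difference of 0.48 (exact permutation p = 0.180). Against Myl7 it was 3.38, 3.45, 4.27, 4.24 and 4.28% in Pde2A-/- replicates A, B, 14, D and 15, and 1.85 to 3.72% with a median of 2.63% in wild-type hearts. The log2 difference of 0.57 had an exact permutation p of 0.0260, and 3 of 5 Pde2A-/- hearts were above all wild-type hearts. After adjustment over the 4 ratios this p was 0.104, so no ratio passed. The smallest p the 462 splits allow is 0.00216.

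Scaling the libraries to heart muscle genes shifted the log2 fold changes upwards. When libraries were scaled to the 18 cardiomyocyte markers in place of TMM, the median log2 fold change of all genes moved up by 0.21 to 0.18, and 22.3% of all genes were called, 21.8% as higher. On that scale Ryr2 had 0.39 ± 0.11 (SE, edgeR adjusted p = 0.0177) and Slc8a1 0.27 ± 0.05 (edgeR adjusted p = 0.00159), and both were called higher. Casq2, Trdn, Jph2 and Pln went from below to above 0, at 0.19, 0.06, 0.02 and 0.01, none of them called on either scale, and Casq1 alone stayed below, at -0.15. The median of the 10 genes was 0.20, beside 0.18 for all genes.

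**Figure D3:**
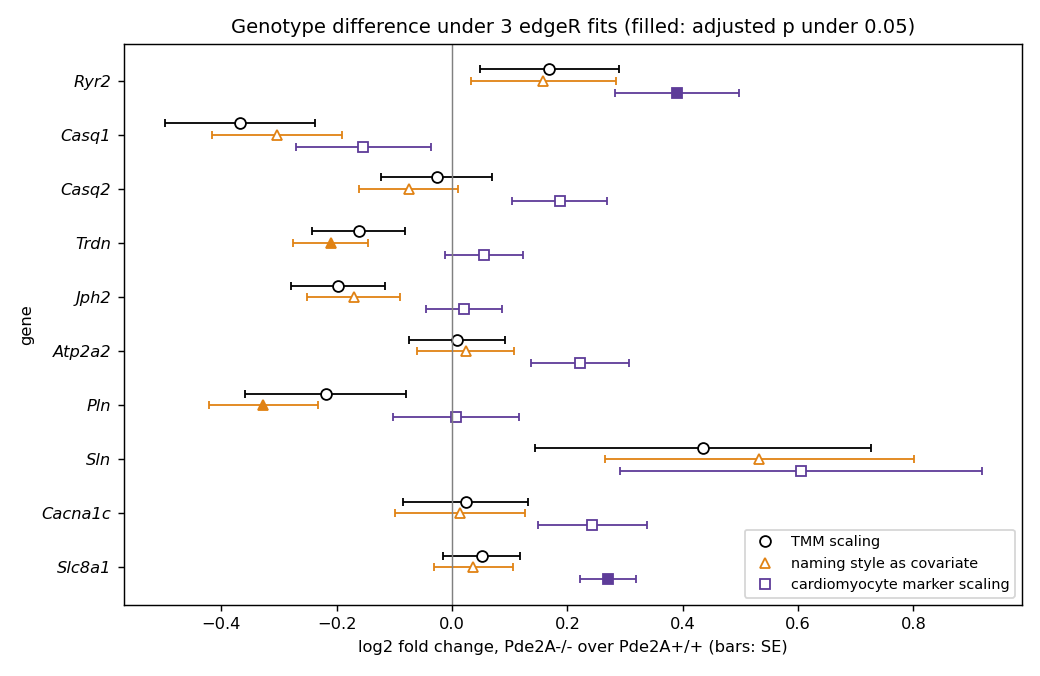
Log2 fold change of Pde2A-/- over Pde2A+/+ hearts with its SE for each gene under TMM scaling (circles), with the naming style of the replicates as a covariate (triangles) and with scaling to 18 cardiomyocyte markers (squares). Filled symbols passed an adjusted p of 0.05: none of the circles, the triangles of Trdn and Pln on the left, and the squares of Ryr2 and Slc8a1 on the right.

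The replicates are named by letters or by numbers, and the labels give no meaning to the style. Letters name 3 Pde2A-/- and 2 wild-type hearts, numbers 2 and 4. With the style as a covariate, Pln, at -0.33 ± 0.10 (SE, edgeR adjusted p = 0.0363), and Trdn, at -0.21 ± 0.07 (edgeR adjusted p = 0.0452), were called lower, where 16.3% of all genes were called and 6.61% called lower. Pln was lower in Pde2A-/- hearts within each style, at 1043 to 1212 against 1319.9 to 1569 CPM among letters and at 844.7 to 898.8 against 939.4 to 1356 CPM among numbers. Within neither style was it called (edgeR adjusted p = 0.292 among letters and 0.159 among numbers). Genotypes that do not overlap were found for 30.2% of all genes among letters and 41.0% among numbers.

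Other genes took opposite directions within the styles. The genotypes were apart for 6 of the 10 genes among letters, all lower in Pde2A-/- hearts, and for 3 among numbers, 2 higher and 1 lower, where 30.2% and 41.0% of all genes were apart. Cacna1c was lower among letters, at 179.7 to 200.7 against 219.4 to 255.2 CPM, and higher among numbers, at 215.6 to 245.1 against 160.2 to 214.7 CPM. Ryr2 had a log2 ratio of means of -0.19 among letters and 0.47 among numbers, and was called higher by edgeR among numbers (adjusted p = 0.0396), beside 18.6% of all genes called and 10.4% called higher there. Among letters 0 of the 10 genes were called, 5 had an unadjusted p under 0.05, and 0.466% of all genes were called.

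The difference between the styles was tested as an interaction in edgeR. On the log2 scale it was 0.60 ± 0.16 (SE) for Cacna1c, 0.65 ± 0.18 for Ryr2 and 0.41 ± 0.13 for Atp2a2, each with an adjusted p of 0.653 in edgeR over all genes. These were the 3 of the 10 genes with an unadjusted p under 0.05, as 7.29% of all genes had, and 0 of the 24177 genes (0.0%) passed after adjustment. The comparison was chosen after the data had been seen.

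**Figure D4:**
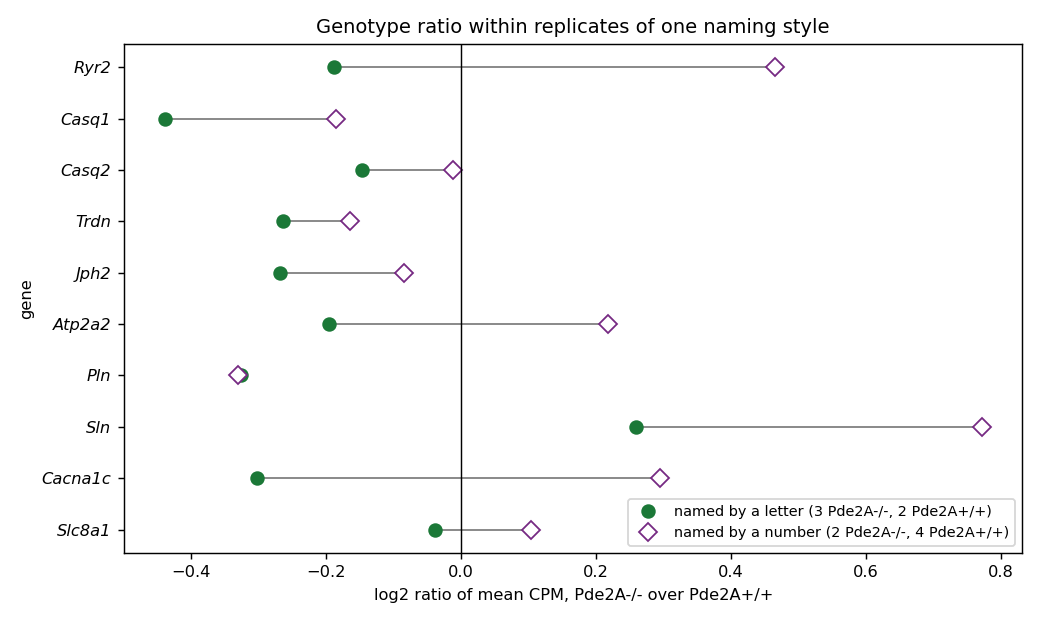
Log2 ratio of the mean CPM of Pde2A-/- over Pde2A+/+ hearts for each gene, computed among replicates named by a letter (circles, 3 and 2 hearts) and by a number (open diamonds, 2 and 4 hearts). Pln has nearly the same ratio in both, at -0.32 and -0.33, while Ryr2, Atp2a2 and Cacna1c lie on opposite sides of 0.

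A wider list gave the other genes of the pathway. Of 51 further calcium genes 50 were tested, and edgeR called 13, 8 higher and 5 lower in Pde2A-/- hearts, beside 14.6% of all genes and 25.1% of those with at least 10 CPM. None of these 13 reached a fold change of 2, and DESeq2 called 24, beside 30.2% of its genes. The calls of Letm1, Smdt1, Hrc, Atp2b1, Slc8a2 and Itpr3 were lost in 9, 8, 6, 6, 5 and 4 of the 11 fits that left out 1 heart, each of them without Pde2A-/- replicate D and without replicate 15. The median log2 fold change of the 50 was 0.13, and 9 of them had non-overlapping genotypes, as had 8.49% of all genes. Strit1, with 7 counts in all, was below the count minimum.

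The inositol trisphosphate receptors, release channels that answer hormones rather than the heartbeat, were higher for all 3 members. Itpr1 had 169 ± 18.3 CPM in Pde2A-/- (SD, n = 5) and 132 ± 9.10 CPM in wild-type hearts (n = 6), a log2 fold change of 0.35 (edgeR adjusted p = 0.00833). For Itpr2 the means were 75.1 ± 2.67 and 59.4 ± 4.15 CPM, at 0.34 (edgeR adjusted p = 0.00127), and every Pde2A-/- heart was above every wild-type heart for both genes. Itpr3, with 37.1 ± 3.68 and 30.2 ± 2.67 CPM, was higher by 0.30 (edgeR adjusted p = 0.0229), with 4 of 5 Pde2A-/- hearts above all wild-type hearts. Ryr1 and Ryr3 were not called, at 1.26 and 0.45 (edgeR adjusted p = 0.176 and 0.111). Without replicates B and D the log2 fold change of Ryr1 went below 0, to -0.42 (edgeR adjusted p = 0.617), and that of Ryr3 was 0.60 (edgeR adjusted p = 0.0605).

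Genes that remove calcium from the cell moved in both directions. Atp2b4, a plasma membrane calcium pump, had 159.8, 174.1, 177.1, 178.1 and 188.5 CPM in Pde2A-/- replicates A, B, 14, D and 15 and 110.8 to 124.7 CPM in wild-type hearts. Its log2 fold change of 0.54 ± 0.05 (SE, edgeR adjusted p = 1.9e-05) had the smallest p of the list. Atp2b1, another pump of this family, was higher by 0.17 (edgeR adjusted p = 0.0296). Slc8a2, another sodium-calcium exchanger, was lower at 7.63 ± 1.38 against 10.3 ± 1.04 CPM (log2 fold change -0.43, edgeR adjusted p = 0.0294), while Slc8a1, the exchanger of the cardiomyocyte, was not called.

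Mitochondrial calcium genes were called for 4 of 8, beside 14.6% of all genes tested. Slc8b1, the mitochondrial sodium-calcium exchanger, had the largest fold change of the genes called, with 9.03 ± 1.75 CPM in Pde2A-/- and 5.77 ± 0.41 CPM in wild-type hearts (0.65 on the log2 scale, edgeR adjusted p = 0.00389). Mcu, the pore of the mitochondrial calcium uniporter, was higher by 0.33 (edgeR adjusted p = 0.00969), and Smdt1, a small subunit of the same channel that shares 16.6% of its exon bases with Pheta2 on the same strand, was lower at -0.25 (edgeR adjusted p = 0.0361). Letm1, an inner membrane protein of ion exchange, had 58.3 ± 13.4 against 76.2 ± 4.40 CPM (-0.39, edgeR adjusted p = 0.0460). It had 70.3 and 75.1 CPM in replicates A and B, within the wild-type range, and 45.7 to 52.6 CPM in the other 3 Pde2A-/- hearts.

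Among sensors and partners of the channels, 2 of 9 were called, both lower, beside 5.67% of all genes called lower. Fkbp1a encodes FKBP12, which binds the ryanodine receptor, and had 333 ± 28.1 CPM in Pde2A-/- and 399 ± 20.8 CPM in wild-type hearts (log2 fold change -0.26, edgeR adjusted p = 0.0131). Ppp1r1a, an inhibitor of protein phosphatase 1 that protein kinase A switches on, had 22.8 ± 2.62 against 32.9 ± 3.09 CPM (-0.53, edgeR adjusted p = 0.00161), and every Pde2A-/- heart was below every wild-type heart. In the group of junction and luminal proteins Hrc, a calcium binding protein of the store, was the 1 gene of 8 called, higher by 0.25 (edgeR adjusted p = 0.0338). By edgeR no channel subunit, store-operated entry gene or further pump was called, of 9, 3 and 3 tested. Of these, 4, 2 and 1 had an unadjusted p under 0.05, beside 30.5% of all genes. DESeq2 called 1, 2 and 0 of them, beside 30.2% of its genes.

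**Figure D5:**
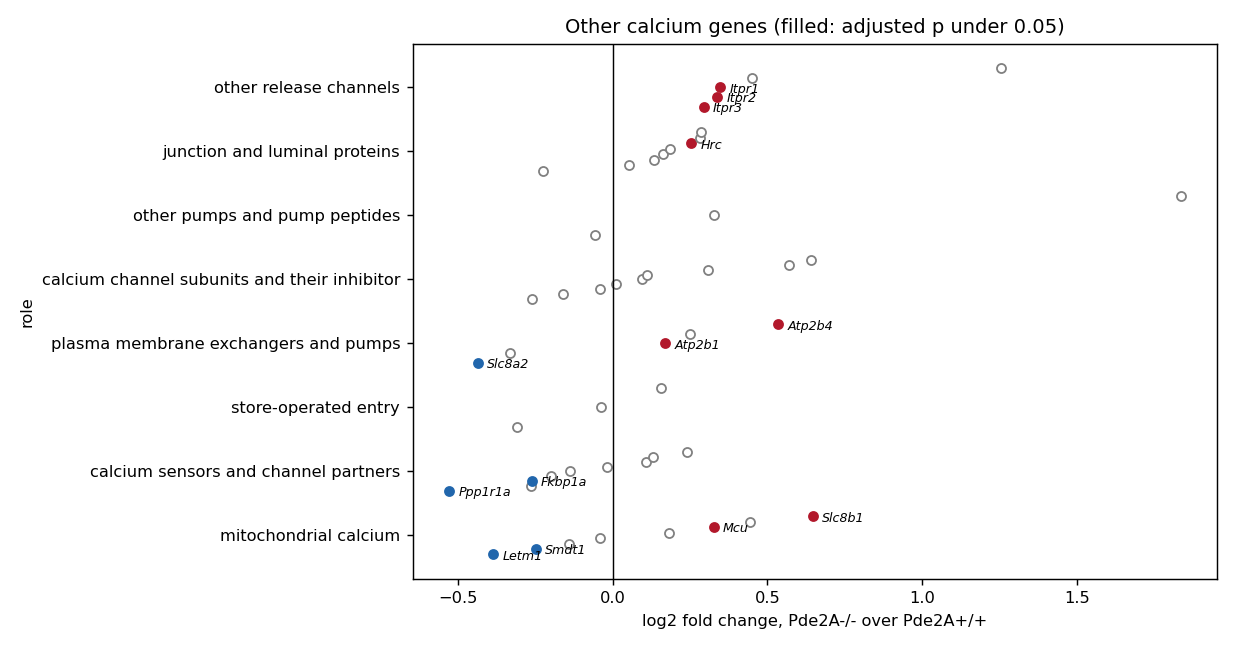
Log2 fold change of Pde2A-/- over Pde2A+/+ hearts for the 50 further calcium genes tested, grouped by role, with 1 point per gene. Filled red points are the 8 genes called higher and filled blue points the 5 called lower by edgeR, and the largest open values belong to Ryr1 and Atp2a1, which were high in replicates B and D alone and had log2 fold changes of -0.42 and -0.38 without them.

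Leaving out replicates B and D together, the 10 genes had 0 calls and 0 with an unadjusted p under 0.05. Of all genes 7.76% were called in this fit, 5.76% as higher and only the remainder as lower. The further calcium genes had 5 called higher and 5 called lower. With all hearts these counts were 8 and 5, but the lower genes were not the same. Slc8a2 was no longer called without B and D (edgeR adjusted p = 0.0917), and Orai1 was (edgeR adjusted p = 0.0425, and 0.0808 with all hearts). Leaving out replicate D or replicate 15 alone also gave 5 called higher, where 1702 and 1918 of all genes were called in either direction, against 3532 with all hearts.

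RefSeq promoter windows of GRCm38.p6 were matched for 7 of the 10 genes, 250 bases before the start of transcription. They are shown for Pln and Slc8a1, the 2 genes whose windows held the letters AGATAA, a form of the GATA core, on either strand. This form was found in 9.99% of 32851 windows. In capitals are these letters and, in Pln, TATAAA (12.4% of windows), which lay 219 bases before the start. Other forms of the GATA core, such as TGATAA and AGATAG, were not searched for and are not marked. The Pln window is chr10:53337436-53337685 on the forward strand and the Slc8a1 window chr17:81738388-81738637 on the reverse strand, each written 5′ to 3′ along the gene.

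Pln: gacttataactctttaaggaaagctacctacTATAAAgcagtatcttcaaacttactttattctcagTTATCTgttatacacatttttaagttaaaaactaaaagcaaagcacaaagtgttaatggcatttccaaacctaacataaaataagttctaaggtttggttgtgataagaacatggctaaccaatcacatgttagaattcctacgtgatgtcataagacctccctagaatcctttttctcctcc
Slc8a1: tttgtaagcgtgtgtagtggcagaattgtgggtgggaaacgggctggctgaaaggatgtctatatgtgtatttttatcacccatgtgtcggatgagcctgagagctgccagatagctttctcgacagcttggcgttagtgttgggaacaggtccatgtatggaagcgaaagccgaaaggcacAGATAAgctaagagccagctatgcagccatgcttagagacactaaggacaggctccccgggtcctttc

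The letters AGATAA began 183 bases before the start in Pln, on the strand opposite to the gene, and 68 bases before it in Slc8a1. The cAMP response element TGACGTCA was in none of the 10 windows of these 7 genes and in 1.55% of all windows. Its shorter core TGACG, which the full element contains, was in 1 window of Cacna1c and in 17.8% of all windows. The form of the MEF2 site that was searched for and the M-CAT letters CATTCC were in none, against 3.2% and 12.6% of all windows. That form fixes its outer letters. Wider forms of the MEF2 site were not searched for, so the windows are not shown to lack them. A match or its absence describes these letters in these windows and no binding was measured.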

How the data were processed

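RNA of 11 single hearts was read from stranded poly(A) libraries, single-end on an Illumina NextSeq. Per the labels, the authors mapped the reads to GRCm38/mm10 with STAR; versions and annotation are not given in the sources used here. The deposited values are raw counts per gene, without normalization or filtering: reads without regard to strand, on the sense strand and on the opposite strand. Reads lying on several genes are counted on none. These and other reads not counted on a gene were 19.6 to 22.4% of the reads of a heart.

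The sense counts were used. Genes with at least 10 counts over all hearts were kept, normalized by TMM and compared with edgeR 4.0.16 in R 4.3.3 (quasi-likelihood test, Benjamini-Hochberg adjustment over 24177 genes). Names, positions and exon lengths came from GENCODE M21, which matched 55227 of 55487 identifiers and 144 of 145 listed symbols. Ratios were compared by exact permutation over hearts with a prior count of 0.5. The common coefficient of variation between hearts was 16.8%. For the 10 genes, with at least 592 counts in each heart, counting errors are far smaller than the spread of the hearts. Genes with few counts, such as Ryr1 with 13 to 254 in a heart, carry larger ones. The lists of calcium genes and of 9 kinds of marker were written from general knowledge with earlier results of these data known, and give no independent support. Named were the 10 genes, up to 10 called genes of the wider list with the largest change, the 2 most abundant markers of a list or, for atria, ventricles and skeletal muscle, defining ones, and Pde2a. Hrc, Atp2b1, Smdt1, Orai1, Ryr1, Ryr3, Atp2a1, Tnnt3, Acta1, Tnni2, Actn3, Alas2 and Gm45837 were named after their values were seen.

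On simulated counts of this comparison with 200 genes changed among 23656, edgeR called 44 of 50 at log2 -1, 34 of 50 at -0.5, 42 of 50 at 0.5 and 48 of 50 at 1, with 6 wrong calls, and 0 without any change. Alternatives were DESeq2 1.42.0, its size factors, filterByExpr, no filter, both strands, no globin genes, scaling to cardiomyocyte markers, naming style or Xist as covariate, other thresholds, a prior count of 2 and each heart left out. Comparisons within naming styles, their interaction and the omission of replicates B and D were added after the data were seen.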

Additional observations from a re-analysis of the deposited data

Results flagged for a closer look

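Casq2 in Pde2A-/- replicate B, at 767.5 CPM, stood apart from the other 4 Pde2A-/- hearts, which lay between 605.9 and 631.5 CPM. Atp2b4 in wild-type replicate 11, at 110.8 CPM, stood apart from the other 5 wild-type hearts, which lay between 120.2 and 124.7 CPM. Both gaps exceeded Dixon's 95% critical value. Of 54 groups of hearts examined this way, chance flags about 1 in 20.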

How the results depend on the processing

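No paired analysis was possible because the genotypes share no replicate names. Of the 10 genes, 0 were called higher and 0 lower in each of the 11 fits that left out 1 heart. The counts of called genes differed from this in 4 settings: 2 higher with cardiomyocyte marker scaling (Ryr2 and Slc8a1), 2 lower with naming style as a covariate (Pln and Trdn), 1 lower with DESeq2 (Casq1) and 1 higher among replicates named by a number (Ryr2). Of the wider list, 8 genes were called higher and 5 lower; leaving out 1 heart gave 5 to 16 higher and 2 to 8 lower, with 5 higher without Pde2A-/- replicate D or 15 and 16 without A, 2 lower without Pde2A-/- replicate 14, D or 15 or wild-type replicate 7, and 3 lower without wild-type replicate 6, 8, H or E. DESeq2 gave 14 higher and 10 lower, Xist as a covariate 14 and 8, filterByExpr 8 lower, cardiomyocyte marker scaling 23 and 1, an adjusted p under 0.01 gave 5 and 1, a fold of at least 2 gave 0 and 0, letters alone 0 and 0, and omission of replicates B and D 5 higher. The number of all genes called moved as well. It was 3532 with all hearts, 5052 without Pde2A-/- replicate A, 1858 without 14, 1702 without D and 1918 without 15. Without wild-type replicates 7, 6, 8, H and E it was 2658, 2156, 2455, 2568 and 2764. It was 5145 with DESeq2, 4087 with Xist and 4208 of 16853 with filterByExpr. Marker scaling gave 5403, letters alone 100 and omission of B and D 1824.

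Some log2 fold changes turned sign, none of them past the threshold on the other side. Cardiomyocyte marker scaling gave Casq2 0.19, Trdn 0.056, Jph2 0.021 and Pln 0.0063, and letters alone gave Ryr2 -0.19, Atp2a2 -0.20, Cacna1c -0.30 and Slc8a1 -0.041. Casq2 was 0.036 with Xist as a covariate, and -0.096 to 0.019 when 1 heart was left out (0.00026 without Pde2A-/- replicate A, 0.019 and 0.0028 without wild-type replicates H and E). Atp2a2 was -0.055 to 0.061 when 1 heart was left out (-0.018, -0.055, -0.014, -0.00063 and -0.010 without Pde2A-/- replicates 14 and 15 and wild-type replicates 7, 11 and 8), and Cacna1c -0.039 to 0.10 (-0.039, -0.0048 and -0.032 without Pde2A-/- replicate 15 and wild-type replicates 11 and 8). The log2 ratio of Sln to Myl7 was 0.47 to 0.67 when 1 heart was left out, and its p rose to 0.0619 without Pde2A-/- replicate 14, D or 15. The cause of these changes was not tested. Sln, with the fewest reads of the 10 genes (592 to 1979 per heart), had the widest interval.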
